A study of Mus musculus with 6 samples.

Results

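The 10 genes described here encode subunits of the transcription factor NF-kB (Nfkb1, Nfkb2, Rela and Relb) and the kinase and the ubiquitin ligase that switch it on (Ikbkb and Traf6). The rest can be induced by NF-kB itself. Of these, Nfkbia, Nfkbie and Tnfaip3 encode inhibitors, and Nfkbiz encodes a nuclear protein of the inhibitor family that works as a coactivator. The genes were chosen by symbol, and all 10 were among the 12969 genes of the table and among the 12913 genes tested. RNA was sequenced from infarct tissue of male mice about 12 weeks old, 4 days after the left anterior descending coronary artery was permanently tied. A group of 3 IRF3-/- mice (Irf3KO) was set against 3 C57BL/6 wild-type mice (WT). The sources used here do not give the strain of the knockout mice, the deleted part of Irf3 or whether litters were shared, and p-values measure only the spread between these libraries. Irf3 itself was still read in the knockout, at 7.40, 8.74 and 7.68 RPKM (RPKM being reads scaled to gene length and library size) in Irf3KO against 13.76, 13.87 and 11.56 RPKM in WT. All knockout values were lower, and the change did not pass the test (log2 fold change -0.65 ± 0.18, SE, n = 3 per group, limma adjusted p = 0.344). Leaving out Irf3KO replicate 2 gave -0.72 (adjusted p = 0.109). The change passed with the GC and length trend described below taken off (adjusted p = 0.0421), though not when the replicate block was added to that fit (0.0952) or Irf3KO replicate 2 was left out of it (0.0637), and it passed with library weights (-0.74, adjusted p = 0.000479). Since the deleted part is not known here, these reads check the labels only in part.

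NF-kB is held in the cytoplasm by IkB proteins. Ligands of Toll-like and interleukin-1 receptors act through Traf6 on the IKK complex, whose catalytic subunit Ikbkb marks IkB for destruction, and the freed dimers enter the nucleus and switch on inflammatory genes together with their own inhibitors. Some Toll-like receptors can also lead to Irf3, which drives the interferon genes. The NF-kB genes thus form the arm of the innate response that runs beside the deleted factor. In infarcted heart this arm is known for cytokine and adhesion molecule induction in infiltrating and resident cells.

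Promoter windows from RefSeq (GRCm38.p6, 250 bases before to 50 bases after a gene start) were found for 6 of the 10 genes. Nfkb1, Relb, Nfkbiz and Ikbkb had no entry. The windows are shown because a loop in which NF-kB induces its own inhibitors runs through kB elements, and 4 of the 6 genes (Nfkb2, Nfkbia, Nfkbie and Tnfaip3) held at least 1 match to the kB consensus, searched on both strands, which 4.5% of 32851 windows of the same length held. The count is per gene and the percentage per window, and Nfkb2 and Tnfaip3 had more than 1 window each. The match began 29 bases before the start in Nfkbia and 106 bases before it in Nfkbie. In Tnfaip3 matches began 125 and 12 bases before the start, and in the first of 3 windows of Nfkb2 they began 39, 38 and 11 bases before it, the first of these positions matching on both strands and overlapping the next. The other windows of Nfkb2, which overlap and share 1 match, also held matches, while the second window of Tnfaip3 held none. Capitals mark the bases of the matches, and each sequence is on the strand of its gene, 5′ to 3′.
Nfkbia chr12:55492598-55492897 (- strand): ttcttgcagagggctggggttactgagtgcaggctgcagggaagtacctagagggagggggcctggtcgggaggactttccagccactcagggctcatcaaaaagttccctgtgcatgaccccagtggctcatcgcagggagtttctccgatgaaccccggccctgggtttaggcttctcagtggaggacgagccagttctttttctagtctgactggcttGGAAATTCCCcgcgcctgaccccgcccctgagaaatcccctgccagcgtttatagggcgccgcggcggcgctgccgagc
Nfkbie chr17:45555450-45555749 (+ strand): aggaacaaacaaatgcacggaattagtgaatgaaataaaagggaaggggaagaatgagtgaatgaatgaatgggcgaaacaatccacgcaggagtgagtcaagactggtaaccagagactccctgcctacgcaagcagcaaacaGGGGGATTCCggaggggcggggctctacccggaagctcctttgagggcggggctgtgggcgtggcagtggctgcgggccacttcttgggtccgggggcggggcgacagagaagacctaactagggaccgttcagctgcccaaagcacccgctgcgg
Tnfaip3 chr10:19015361-19015660 (- strand): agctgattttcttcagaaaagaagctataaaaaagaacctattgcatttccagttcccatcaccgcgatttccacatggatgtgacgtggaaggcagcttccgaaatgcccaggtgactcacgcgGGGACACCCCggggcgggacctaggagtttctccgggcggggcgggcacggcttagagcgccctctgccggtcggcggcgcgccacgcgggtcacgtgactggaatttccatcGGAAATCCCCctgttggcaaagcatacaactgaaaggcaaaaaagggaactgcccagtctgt
Nfkb2 chr19:46304487-46304786 (+ strand): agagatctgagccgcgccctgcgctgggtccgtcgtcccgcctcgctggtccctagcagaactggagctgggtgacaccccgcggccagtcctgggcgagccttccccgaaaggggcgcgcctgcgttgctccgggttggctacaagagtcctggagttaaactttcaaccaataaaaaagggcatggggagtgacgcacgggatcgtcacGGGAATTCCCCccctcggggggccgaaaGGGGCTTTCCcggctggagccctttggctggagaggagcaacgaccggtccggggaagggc
The windows of Rela and Traf6 held no match. The core of the interferon response element, GAAA repeated after any 2 bases and searched on both strands, was in 3.4% of all windows. None of those of the 6 NF-kB genes held it. It was in those of 5 of the 7 interferon-stimulated genes with a window (of a list of 10), among them Isg15 and Ifit1. The window of Irf7 did not hold it. Of the same 7 genes 1, Cxcl10, held a match to the kB consensus. A match is a description of the letters and does not show binding.

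No NF-kB gene changed past the test in infarcts without Irf3. Of the 10 genes 0 were called by limma at an adjusted p under 0.05 and 0 had an unadjusted p under 0.05, where 0.503% of all tested genes were called and 8.40% had an unadjusted p under 0.05. Their median log2 fold change, Irf3KO over WT on log2(RPKM + 1), was -0.08, beside -0.09 over all tested genes, with 4 values above 0 and 6 below. The range ran between -0.77 for Nfkbiz and 0.40 for Nfkb2. On that scale the 95% interval lay inside a change of 1 log2 unit either way for 8 of the 10 genes. Nfkbiz and Traf6 were the exceptions. The scale understates changes of low genes, so the count is no bound on their RPKM ratios. With 0.1 RPKM added in place of 1, Tnfaip3 was at -0.22 ± 0.41 and Ikbkb at -0.40 ± 0.30 (SE). Weighting each library by its fitted variance was the one setting run that called any of them, 4 of the 10 (Nfkb2, Nfkbia and Nfkbie higher and Nfkbiz lower), and it called 2960 of all tested genes. In bulk tissue fewer cells of a type and less RNA per cell cannot be told apart.

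The interferon arm differed in the same libraries. All 10 genes of a short list of interferon-stimulated genes, chosen with earlier results of these data known, were called lower, with a median log2 fold change of -2.36, and all 10 were also called without Irf3KO replicate 2 described below, with a median of -2.16. Isg15, a ubiquitin-like antiviral protein, stood at 7.96, 6.14 and 8.57 RPKM in Irf3KO and at 53.04, 40.09 and 41.49 RPKM in WT, with no overlap. Its log2 fold change was -2.42 ± 0.21 (limma adjusted p = 0.00227). For Ifit1, which binds viral RNA, the value was -2.51 ± 0.27 (limma adjusted p = 0.00719), and without WT replicate 3 the adjusted p was 0.0634. Irf7, a factor that amplifies interferon production, had one of -2.39 ± 0.23 (limma adjusted p = 0.00367). Isg15 was at -2.30, Ifit1 at -2.26 and Irf7 at -2.34 without Irf3KO replicate 2. The highest end of the 95% intervals of these 3 genes was -1.87, for Irf7, and the lowest end among the NF-kB genes was -1.61, for Nfkbiz. The gap between these ends is given for log2(RPKM + 1) only, and for 3 of the 10 listed interferon-stimulated genes only. The log2 fold changes of all 10 ran between -2.70 and -1.86, and the intervals of the others are not given here. With 0.1 RPKM added in place of 1, Irf7 was at -2.58 ± 0.24 and Nfkbiz at -0.99 ± 0.49 (SE).

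**Figure D1:**
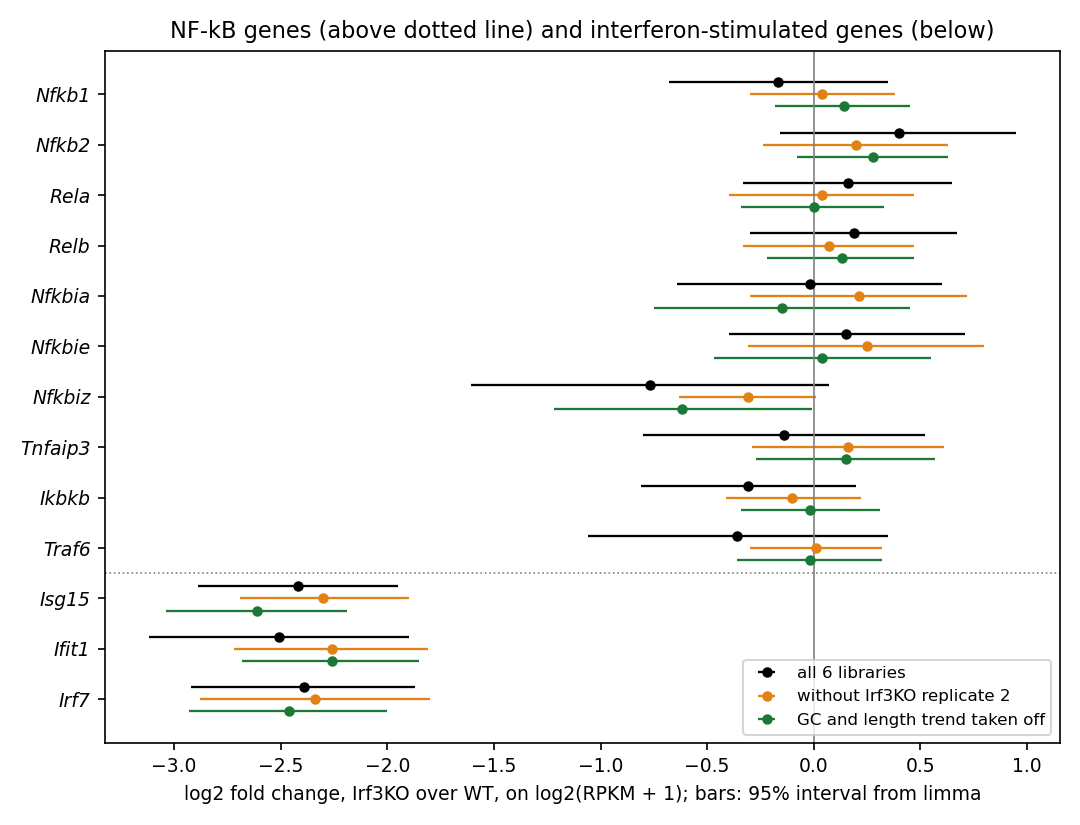
Log2 fold changes, Irf3KO over WT on log2(RPKM + 1), with 95% intervals from limma for the 10 NF-kB genes and, below the dotted line, Isg15, Ifit1 and Irf7, from all 6 libraries, without Irf3KO replicate 2 and with the GC and length trend of each library taken off. In the fit to all 6 libraries with no trend taken off, every NF-kB interval crosses 0 and those of the 3 interferon-stimulated genes lie between -3.12 and -1.87; with the trend taken off, the Nfkbiz interval runs between -1.22 and -0.01.

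Depth and library quality bear on every value below. The libraries held 14.8, 18.1 and 61.9 M reads in genes in Irf3KO and 18.9, 20.8 and 15.7 M reads in WT, as estimated from the steps between low RPKM values. For the 10 genes this came to between 111 reads (Nfkbiz in Irf3KO replicate 2) and 7369 reads (Nfkb1 in Irf3KO replicate 3), a counting error of at most 9.50% of the value, PCR copies not being told apart. Irf3KO replicate 2 stood apart, with a mean correlation of 0.907 with the other libraries, against 0.941 to 0.966 for the rest. With genes put in 5 equal classes of transcript GC content, the median log2 value of that library relative to the WT mean was -0.78 in the lowest class and 0.36 in the highest. In the other 5 libraries the medians of the 5 GC classes stayed between -0.17 and 0.10. By gene length its medians were 0.13 in the shortest class and -0.67 in the longest. Values without it stand beside the results. WT replicate 1 had the next lowest mean correlation, at 0.941. It held the highest of the 6 values for 5 NF-kB genes (Nfkb1, Nfkbia, Nfkbie, Tnfaip3 and Ikbkb). Without WT replicate 1 the log2 fold changes were 0.53 for Nfkb2, 0.39 for Nfkbie, 0.32 for Relb, 0.30 for Rela and 0.15 for Nfkbia. Those of the rest were 0.01 for Tnfaip3, -0.13 for Nfkb1, -0.27 for Ikbkb, -0.32 for Traf6 and -0.84 for Nfkbiz, and 0 of the 10 were called.

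Irf3KO replicate 2 held the lowest of the 6 values for 6 of the NF-kB genes (Nfkb1, Nfkbia, Nfkbiz, Tnfaip3, Ikbkb and Traf6) and the highest for 3 (Nfkb2, Rela and Relb). Nfkb2, Rela and Relb have the highest GC content of the 10, at 59.4%, 59.4% and 56.8%, and were 0.80, 0.40 and 0.43 log2 units above the WT mean there. Traf6, Nfkb1 and Tnfaip3 have the lowest, at 45.7%, 44.9% and 47.1%, and were at -1.09, -0.58 and -0.74. Once a smooth trend over GC content and length was taken off each library, a step chosen after seeing the data, Rela stood at -0.05, Nfkb1 at 0.21 and Tnfaip3 at 0.01 in that library. Nfkb2 stood at 0.42, Nfkbia at -0.66 and Nfkbiz at -1.24 after the same step. Without the library the median log2 fold change of the 10 genes was 0.05 and again 0 were called, where 0.743% of all genes were called, 0.534% of all genes as lower. With the trend taken off the median was 0.02 and 0 were called, where 0.936% of all genes were called, 0.700% of all genes as lower.

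**Figure D2:**
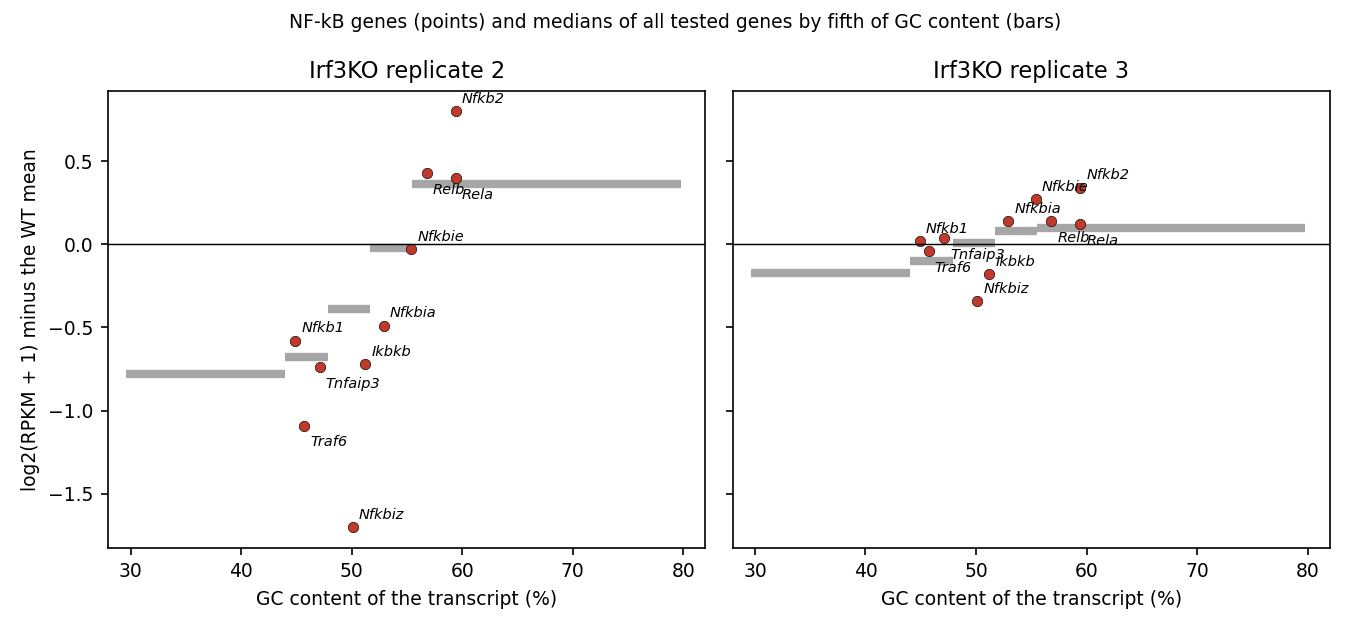
Log2(RPKM + 1) minus the WT mean for the 10 NF-kB genes (points) against the GC content of the transcript in percent, in Irf3KO replicate 2 and Irf3KO replicate 3; bars are medians of all tested genes in 5 equal classes of GC content. In replicate 2 the bars climb with GC content between -0.78 and 0.36, with Nfkb2 at 0.80 and Nfkbiz at -1.70, whereas in replicate 3 the bars stay between -0.17 and 0.10.

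At the top of the pathway, Traf6, the ubiquitin ligase that relays Toll-like and interleukin-1 receptor signals, stood at 4.46, 1.44 and 4.05 RPKM in Irf3KO and at 4.46, 4.37 and 3.82 RPKM in WT. Only Irf3KO replicate 2 lay outside the WT range. The log2 fold change was -0.36 ± 0.31 (95% interval -1.06 to 0.35, limma adjusted p = 0.60), and it was 0.01 ± 0.13 without that library. Ikbkb, the catalytic kinase of the classical pathway, stood at 3.57, 1.80 and 3.07 RPKM in Irf3KO and at 3.84, 3.70 and 3.32 RPKM in WT. The groups overlapped, with Irf3KO replicates 2 and 3 below all WT values. Its log2 fold change was -0.31 ± 0.22 (95% interval -0.81 to 0.20, limma adjusted p = 0.568) and -0.10 ± 0.13 without Irf3KO replicate 2. The table divides Ikbkb by a length of 19088 bases, where its longest GENCODE M21 transcript has 4845 bases, so its level per length is set low beside the other genes. That length is the same for every library, so the ratio of RPKM between groups does not depend on it. The log2 fold change on log2(RPKM + 1) does depend on it, as does the removal of the length trend. With 0.1 RPKM added in place of 1 the log2 fold change of Ikbkb was -0.40 ± 0.30.

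Among the subunits, Rela, the main activating partner of the classical dimer, stood at 27.20, 37.35 and 30.52 RPKM in Irf3KO and at 34.44, 25.84 and 24.90 RPKM in WT. The groups overlapped, and the WT libraries alone spanned nearly the same range. Its log2 fold change was 0.16 ± 0.21 (95% interval -0.33 to 0.65, limma adjusted p = 0.726), and it was 0.04 ± 0.18 without Irf3KO replicate 2. Nfkb1, the precursor of Rela's usual DNA-binding partner, stood at 25.25, 16.01 and 24.83 RPKM in Irf3KO and at 25.84, 25.69 and 21.87 RPKM in WT. Apart from the low Irf3KO replicate 2, the knockout values lay inside the WT range. Its log2 fold change was -0.17 ± 0.22 (95% interval -0.68 to 0.35, limma adjusted p = 0.719) and 0.04 ± 0.14 without that library.

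The subunits of the alternative pathway were Nfkb2, whose precursor is cut to a DNA-binding subunit when that pathway is active, and Relb, its partner. Nfkb2 stood at 20.88, 35.62 and 25.68 RPKM in Irf3KO and at 24.34, 18.50 and 17.95 RPKM in WT. Irf3KO replicates 2 and 3 lay above all WT values and replicate 1 within their range. Its ratio of mean RPKM, Irf3KO over WT, was 1.35, the highest of the 10 genes, and its log2 fold change was 0.40 ± 0.24 (95% interval -0.16 to 0.95, limma adjusted p = 0.556). The value was above 0 in every setting run, and without Irf3KO replicate 2 it was 0.20 ± 0.18 (adjusted p = 0.863). Relb stood at 6.70, 9.36 and 7.48 RPKM in Irf3KO and at 8.32, 5.93 and 6.11 RPKM in WT. Its groups overlapped too, with a log2 fold change of 0.19 ± 0.21 (95% interval -0.30 to 0.67, limma adjusted p = 0.676) and 0.07 ± 0.17 without Irf3KO replicate 2.

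Relb and Rela kept nearly the same proportion in every library. The log2 ratio of Relb to Rela was -2.02, -2.00 and -2.03 in Irf3KO and -2.05, -2.12 and -2.03 in WT, so the spread within a group was 0.02 (SD) in Irf3KO and 0.05 in WT (n = 3 each). The log2 ratio of Nfkb2 to Nfkb1 varied more, at -0.27, 1.15 and 0.05 in Irf3KO and -0.09, -0.47 and -0.28 in WT. The difference in its group means, Irf3KO minus WT, was 0.59 with all libraries and 0.17 without Irf3KO replicate 2, and the groups overlapped. By the root-mean-square difference of centred log2(RPKM + 1) values over the 6 libraries, Relb was also among the 3 tested genes closest in pattern to Rela, at 0.0309 log2 units. The other two were Rpl13a-ps1, a ribosomal pseudogene whose reads cannot be told from near-identical copies, at 0.0178, and Atp6v0c, a subunit of the vacuolar proton pump, at 0.0193. These distances are descriptions over 6 libraries, 1 of which, Irf3KO replicate 2, carries the trend with GC content given above.

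Of the inhibitors, Nfkbia encodes the IkB protein that NF-kB induces fastest and that returns dimers to the cytoplasm. It stood at 42.78, 24.61 and 38.59 RPKM in Irf3KO and at 44.74, 27.97 and 34.01 RPKM in WT. The means were 35.3 ± 9.51 RPKM in Irf3KO and 35.6 ± 8.49 RPKM in WT (SD, n = 3 each), and the groups overlapped fully except for Irf3KO replicate 2. The log2 fold change was -0.02 ± 0.27 (95% interval -0.64 to 0.60, limma adjusted p = 0.970), and it was 0.21 ± 0.21 without Irf3KO replicate 2, a turn in sign. Its promoter window is the first shown above.

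Macrophage and endothelial transcripts were high and low in nearly the same libraries as Nfkbia. The summed level of 13 macrophage markers was 5805, 2232 and 4659 RPKM in Irf3KO and 6221, 3448 and 3409 RPKM in WT, so that the lowest and the 3 highest libraries are those of Nfkbia, in the same order. The sum of 8 endothelial markers was 341, 244 and 343 RPKM in Irf3KO and 434, 292 and 265 RPKM in WT, with the same lowest library and the same 3 highest. The sum of 12 cardiomyocyte markers was 16780, 25911 and 19217 RPKM in Irf3KO and 7851, 15037 and 21625 RPKM in WT. The sum of 5 neutrophil markers was 58.9, 42.3 and 44.4 RPKM in Irf3KO and 95.1, 35.2 and 42.0 RPKM in WT. Its 3 highest libraries were also those of Nfkbia, while its lowest was WT replicate 2. In Irf3KO replicate 2 the median of all tested genes, relative to the WT mean, was -0.29 log2 units. The part of these cell types in the NF-kB values was not tested. The tested genes closest in pattern to Nfkbia were Cplx2, a regulator of vesicle fusion, at 0.0493, Gpr132, a G protein-coupled receptor, at 0.0674 and Cytip, a leukocyte adhesion regulator, at 0.0706 log2 units over the 6 libraries. Their levels lay between 1.07 and 3.24 RPKM, where adding 1 before the log shrinks differences between libraries more than at the level of Nfkbia. The closeness was measured on that scale only.

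Nfkbie, a second cytoplasmic IkB, stood at 6.95, 5.68 and 7.21 RPKM in Irf3KO and at 8.44, 4.77 and 4.81 RPKM in WT. All knockout values lay inside the WT range. The log2 fold change was 0.15 ± 0.24 (95% interval -0.40 to 0.71, limma adjusted p = 0.762) and 0.25 ± 0.23 without Irf3KO replicate 2. Tnfaip3, a ubiquitin-editing enzyme that ends signalling upstream of IKK, stood at 3.46, 1.21 and 2.81 RPKM in Irf3KO and at 3.59, 2.46 and 2.19 RPKM in WT. Only Irf3KO replicate 2 lay outside the WT range. Its log2 fold change was -0.14 ± 0.29 (95% interval -0.80 to 0.52, limma adjusted p = 0.811) and 0.16 ± 0.19 without that library.

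Nfkbiz was the only one of the 10 genes whose groups did not overlap, where 18.4% of all tested genes had groups that did not overlap, 11.8% of all with Irf3KO lower and 6.61% with Irf3KO higher. It encodes a nuclear IkB that works as a coactivator at a subset of late inflammatory genes. Nfkbiz stood at 4.94, 1.22 and 4.68 RPKM in Irf3KO and at 5.61, 6.21 and 6.85 RPKM in WT. Its means were 3.61 ± 2.08 RPKM in Irf3KO and 6.22 ± 0.620 RPKM in WT (SD, n = 3 each). The log2 fold change was -0.77 ± 0.37 (95% interval -1.61 to 0.07), the lowest of the 10, and did not pass the test (limma adjusted p = 0.556, unadjusted 0.0665). Without Irf3KO replicate 2 it was -0.31 ± 0.13 (adjusted p = 0.651), and with the GC and length trend taken off it was -0.62 ± 0.26 (95% interval -1.22 to -0.01, adjusted p = 0.433), an interval that did not cross 0.

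**Figure D3:**
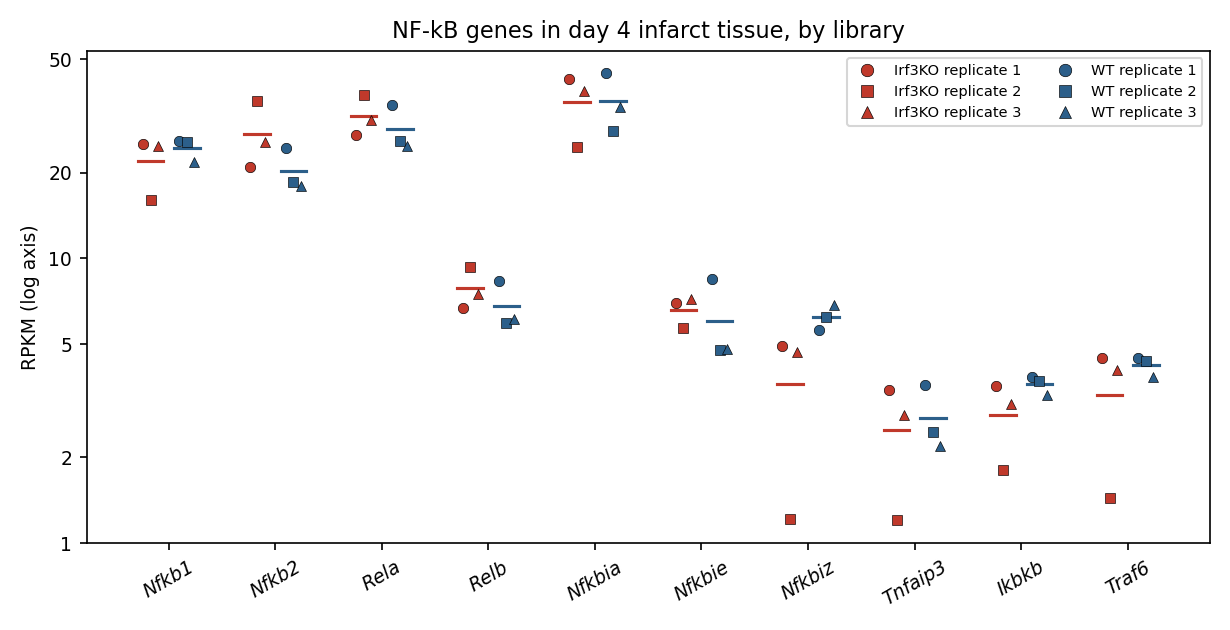
RPKM (log axis) of the 10 NF-kB genes in each library, Irf3KO left of WT for each gene; horizontal lines are group means and symbols mark the replicate number. The square of Irf3KO replicate 2 is the highest value for Nfkb2, Rela and Relb and the lowest for 6 genes, while the other 2 knockout libraries lie inside the WT range for 7 of the 10 genes.

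In levels per length, the order of the WT means was Nfkbia at 35.6, Rela at 28.4, Nfkb1 at 24.5 and Nfkb2 at 20.3 RPKM. These were followed by Relb at 6.79, Nfkbiz at 6.22, Nfkbie at 6.01, Traf6 at 4.22, Ikbkb at 3.62 and Tnfaip3 at 2.75 RPKM. The WT libraries of Nfkb2 and Relb and those of Nfkbie and Traf6 did not overlap. Every other pair of neighbours in this order overlapped over the WT libraries. Relative to Rela within a library, the log2 ratio of Nfkbia was 0.65, -0.60 and 0.34 in Irf3KO and 0.38, 0.11 and 0.45 in WT. That of Tnfaip3 was -2.97, -4.95 and -3.44 in Irf3KO and -3.26, -3.39 and -3.51 in WT. In both ratios Irf3KO replicate 2 lay below the WT range, replicate 1 above it and replicate 3 within it.

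The rest of the pathway was read from 5 lists, chosen with earlier results known: 10 other Rel and IkB genes and related regulators, 26 kinases and adaptors, 12 receptors, 18 other negative regulators and 30 target genes were in the table and tested. In each list 0 members were called by limma in either direction, where 0.503% of all tested genes were called. An unadjusted limma p under 0.05 was held by 1, 0, 0, 2 and 3 genes of these lists, in that order, where 8.40% of all tested genes held one. Groups did not overlap, with Irf3KO higher, for 2, 0, 0, 3 and 2 genes, beside 6.61% of all tested genes. With Irf3KO lower they did not overlap for 1, 1, 1, 5 and 2 genes, beside 11.8% of all tested genes. The median log2 fold changes, in the same order, were 0.08, -0.18, -0.31, -0.22 and -0.02, beside -0.09 for all tested genes. Without Irf3KO replicate 2 they were -0.03, -0.02, -0.03, -0.02 and 0.08, beside 0.01 for all tested genes. In Irf3KO replicate 2 alone, relative to the WT mean, the list medians were 0.19, -0.42, -0.82, -0.48 and -0.68, beside -0.29 for all tested genes. Ube2v1, Il18r1, Tnip3, Tnf, Il1a, Cxcl2, Csf2 and Csf3 of these lists were not analysed here.

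**Figure D4:**
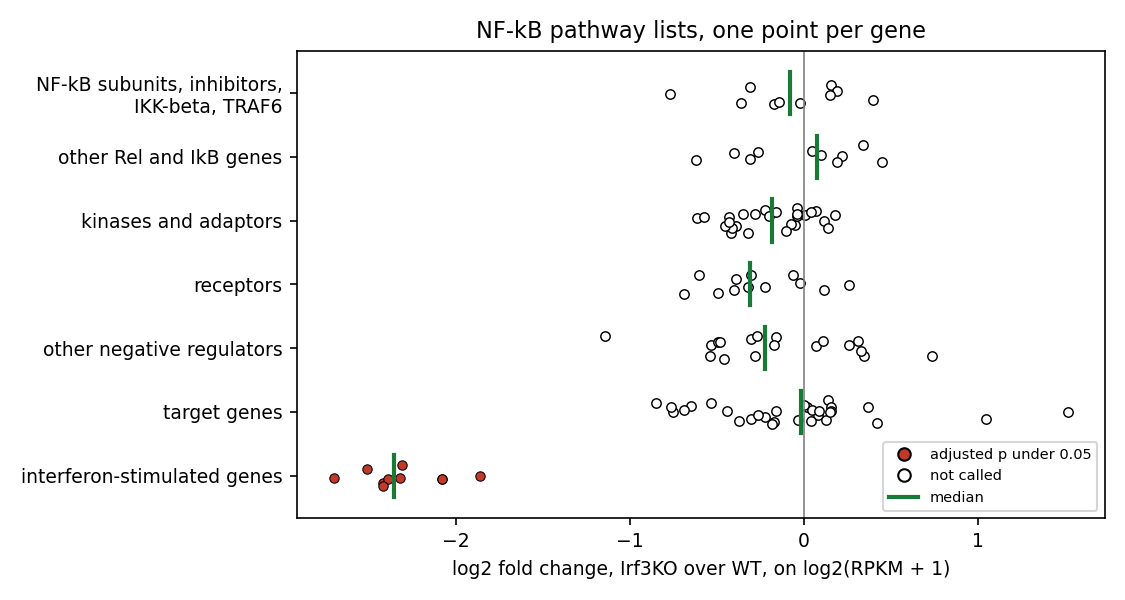
Log2 fold change, Irf3KO over WT on log2(RPKM + 1), of each gene of the NF-kB lists and of 10 interferon-stimulated genes; filled points passed an adjusted p under 0.05 and green bars are medians. No point of the 6 NF-kB lists is filled, and all 10 interferon-stimulated genes are, around a median of -2.36. The list labelled other Rel and IkB genes also holds related regulators such as Commd1 and Nkap.

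Nlrc5 came closest to the threshold among the negative regulators. It encodes an interferon-inducible activator of class I antigen presentation genes that has also been described in mouse cells as a restraint on NF-kB. Nlrc5 stood at 1.44, 0.59 and 1.37 RPKM in Irf3KO and at 3.91, 3.54 and 3.38 RPKM in WT, with no overlap. The log2 fold change was -1.14 ± 0.21 (limma adjusted p = 0.0814), and Nlrc5 was called without Irf3KO replicate 2 (-0.94 ± 0.13, adjusted p = 0.0305) and with the GC and length trend taken off (-1.03 ± 0.13, adjusted p = 0.0219). Over the other fits that left out a library its adjusted p was above 0.05 and reached 0.319.

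Tnip1, an adaptor that works with Tnfaip3, stood at 21.79, 37.12 and 23.04 RPKM in Irf3KO and at 18.63, 13.87 and 14.48 RPKM in WT. All knockout values lay above all WT values, and the log2 fold change of 0.74 ± 0.25 did not pass the test (limma adjusted p = 0.506). Tnip2, a related adaptor, stood at 7.94, 4.22 and 7.01 RPKM in Irf3KO and at 8.70, 10.18 and 9.52 RPKM in WT, without overlap, and its log2 fold change was -0.54 ± 0.24 (limma adjusted p = 0.556). Without Irf3KO replicate 2 the log2 fold changes were 0.50 ± 0.16 for Tnip1 and -0.30 ± 0.13 for Tnip2.

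Of the list of other Rel and IkB genes and related regulators, Rel, the subunit c-Rel of lymphoid and myeloid cells, stood at 4.23, 1.38 and 3.15 RPKM in Irf3KO and at 4.54, 5.36 and 4.27 RPKM in WT, without overlap (log2 fold change -0.62 ± 0.29, limma adjusted p = 0.556). Without Irf3KO replicate 2 the value was -0.29 ± 0.16. Commd1, which promotes the breakdown of Rela, was at 0.45 ± 0.17 on that scale, and Nkap, a nuclear protein described as an NF-kB activator, was at -0.40 ± 0.23 (limma adjusted p = 0.556 each). Commd1 was at 0.40 and Nkap at -0.17 without Irf3KO replicate 2. Among kinases and adaptors the smallest p-values belonged to Tirap, a Toll-like receptor adaptor, at -0.57 ± 0.32, Map3k8, a kinase bound to the Nfkb1 precursor, at -0.61 ± 0.35, and Tab3, a partner of the kinase TAK1, at -0.42 ± 0.24 (log2 fold change; limma adjusted p = 0.556 each). Without Irf3KO replicate 2 Tirap was at -0.19, Map3k8 at -0.16 and Tab3 at -0.18.

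Among receptors, Cd40, a costimulatory receptor that feeds both NF-kB pathways, stood at 2.40, 1.25 and 2.11 RPKM in Irf3KO and at 3.69, 3.01 and 2.52 RPKM in WT, without overlap (log2 fold change -0.49 ± 0.22, limma adjusted p = 0.556). Tnfrsf1b, the inducible receptor for tumour necrosis factor, was at -0.69 ± 0.32 on the same scale (limma adjusted p = 0.556). Tlr4, the endotoxin receptor, was at -0.40 ± 0.27 (limma adjusted p = 0.562). Cd40 was at -0.32, Tnfrsf1b at -0.39 and Tlr4 at -0.11 without Irf3KO replicate 2.

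Target genes of NF-kB had values on both sides of 0, 14 above and 16 below. Mmp9, a gelatinase of neutrophils and macrophages, stood at 17.23, 18.81 and 14.79 RPKM in Irf3KO and at 13.08, 2.39 and 4.04 RPKM in WT. The groups did not overlap, but WT replicate 1 lay close to the knockout values, and the log2 fold change of 1.52 ± 0.46 did not pass the test (limma adjusted p = 0.434). It was called without WT replicate 1, at 2.11 ± 0.25 (adjusted p = 0.0427). Gadd45b, a stress-induced signalling protein, stood at 16.71, 11.57 and 18.19 RPKM in Irf3KO and at 27.62, 25.84 and 22.11 RPKM in WT, without overlap (log2 fold change -0.69 ± 0.22, limma adjusted p = 0.468). Ccl4, a chemokine for monocytes and lymphocytes, stood at 4.81, 3.52 and 5.46 RPKM in Irf3KO and at 12.52, 10.42 and 5.40 RPKM in WT (log2 fold change -0.85 ± 0.30, limma adjusted p = 0.539). Mmp9 was at 1.45, Gadd45b at -0.50 and Ccl4 at -0.70 without Irf3KO replicate 2, and none of the 3 was called there.

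As a check of the tissue, all 12 cardiomyocyte markers, all 13 macrophage markers, all 10 fibroblast markers and all 8 endothelial markers were in the table, and none of them was at 0 in any library. Of 8 neutrophil markers 5 were in the table, and of 8 lymphocyte markers 1. The summed level of the fibroblast markers lay between 3814 and 5236 RPKM in Irf3KO and between 6014 and 6774 RPKM in WT, and their median log2 fold change was -0.49, or -0.30 without Irf3KO replicate 2. All 12 cardiomyocyte markers had log2 fold changes above 0, with a median of 0.57, or 0.47 without that library. Of the 13 macrophage markers 12 were below 0, with a median of -0.38, or -0.07 without it. The medians were -0.15 and 0.01 for endothelial and -0.23 and -0.04 for neutrophil markers. Neutrophil markers summed to between 42.3 and 58.9 RPKM in Irf3KO and between 35.2 and 95.1 RPKM in WT. The part of these differences in the values of the NF-kB genes was not tested.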

How the data were processed

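RNA-seq of infarct tissue was measured in 6 mouse libraries, 3 per genotype. The authors deposited 1 table of RPKM, reads scaled to gene length and library size, rounded to 2 decimals, with 1 column per library. The other column the authors deposited holds the gene length in bases. Per the submitters' processing notes edgeR 3.8.6, HTSeq 0.6.0, STAR 2.3.0, Picard 1.100 and SAMtools 0.1.18.0 were used, on NCBIM37 (mm9). Settings, strandedness and any gene filter: not given in the sources used here.

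Gene names split over 2 cells were rejoined in 5 rows. Depth came from the whole-read steps between low values: in each library 85 to 448 such values were read, and 100.0% lay at most 0.2 reads off a whole number. Gene-wide counts were not rebuilt, so count models were left out. After a filter at 1 RPKM (mean over the libraries), log2(RPKM + 1) was fitted by limma 3.58.1 under R 4.3.3 (two-sided eBayes, trended prior), with Benjamini-Hochberg adjustment over 12913 genes and a threshold of 0.05. This scale understates changes of low genes. A single-gene permutation test of 3 against 3 was not run.

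The fit was tested on simulated data for Irf3KO against WT. At 4-fold 67 of 100 altered genes passed, at 2-fold 25 of 100, and of the 12713 unaltered genes 2, over 12913 genes. GC content came from the longest GENCODE M21 transcript, for 98.4% of genes; the added correction fitted splines with 4 degrees of freedom each for GC content and log2 length.

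The members and lists were chosen with earlier results of these data known. Named genes were the 10 members, Irf3, the 3 genes with the smallest p in each pathway list, Isg15, Ifit1 and Irf7, and the 3 genes closest in pattern to Rela and to Nfkbia. Alternatives were other pseudocounts, filters, scaling, trend, library weights, a replicate block and leaving out each library, and, added after seeing the data, removal of the GC and length trend.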

Additional observations from a re-analysis of the deposited data

How the results depend on the processing

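The count of NF-kB genes called was 0 in each fit that left out a library (0 to 0) and in every other setting run except library weights (limma arrayWeights, gene-by-gene, since its default method did not converge), which called 4. At a mean of at least 5 RPKM, Nfkbiz, Tnfaip3, Ikbkb and Traf6 were left out. Those weights ran from 0.103 for Irf3KO replicate 2 to 6.355 for Irf3KO replicate 3, with 4.402 for WT replicate 2, and called 2960 genes in all and 24 of the pathway lists. The 4 NF-kB genes were Nfkb2 at 0.40, Nfkbie at 0.45, Nfkbia at 0.37 and Nfkbiz at -0.36 (limma adjusted p = 0.0251, 0.0206, 0.0495 and 0.0448); Tnfaip3 turned to 0.15. Of 166 values of the 10 genes under the alternatives, 143 kept their direction and side of the threshold and 20 turned in sign. Nfkb2, Relb, Nfkbie and Nfkbiz kept their sign in all settings run.

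The 65 genes called over the table became 34 with a mean of at least 5 RPKM, 119 with the GC and length trend taken off, and 21 to 96 when a library was left out (26 without Irf3KO replicate 3, 31, 30 and 21 without WT replicates 1, 2 and 3). Pathway list members called were 0 to 1 when a library was left out (Nlrc5 or Mmp9), and 1, Nlrc5, with the trend taken off, with or without Irf3KO replicate 2. Leaving out a library gave Nfkb1 -0.28 to 0.04, Nfkbia -0.18 to 0.21, Tnfaip3 -0.35 to 0.16 and Traf6 -0.57 to 0.01. Median-of-ratios scaling, which moved the median of all genes to 0.02, put Nfkbia at 0.10. With the GC and length trend taken off Nfkb1 was at 0.14, Rela at -0.00 and Tnfaip3 at 0.15; without Irf3KO replicate 2 as well, Nfkb1 was at 0.10, Nfkbia at 0.11, Tnfaip3 at 0.22, Ikbkb at 0.02 and Traf6 at 0.10. Why these values turned was not tested.

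Same-numbered libraries deviated from their group means with correlations of 0.129, -0.098 and -0.102 over genes, so the numbers were not taken to pair the mice. The fit with the replicate block called 250 genes, 0 of the 10 NF-kB genes and 2 pathway genes (Mmp9 and Nlrc5). With the block and the trend taken off it called 160 genes and 2 pathway genes (Nlrc5 and Il1rn), with Nfkb1 at 0.14, Rela at -0.00 and Tnfaip3 at 0.15. With 3 animals per group, changes under the intervals given could not be resolved.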
